A study of Mus musculus with 35 samples.

Results

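The 39 interferon-stimulated genes described here were taken by name from 22830 gene symbols counted in bulk RNA of mouse skin wounds, and all 39 were present in both deposited count tables. They comprised 5 genes of interferon signalling and transcription, 5 sensors of foreign or cytosolic nucleic acid, 20 antiviral effectors, 3 chemokines of activated lymphocytes, 3 guanylate-binding proteins, and 3 genes of the immunoproteasome and peptide transport. The wounds came from Col5a1CKO mice, a model of classical Ehlers-Danlos syndrome in which the tamoxifen-inducible Col1a2CreERT driver deleted Col5a1, the gene of a collagen V chain, from Col1a2-expressing fibroblasts of Col5a1 fl/fl animals. Controls (WT) were Cre-negative Col5a1 fl/fl littermates that received the same tamoxifen and the same full-thickness wound on the back, so floxed alleles, tamoxifen and wounding were common to all groups. The first table held 7 WT and 7 Col5a1CKO wounds at day 14, 3 and 3 at day 19, and 3 day 14 Col5a1CKO wounds whose bed had been injected with WT fibroblasts. The study's methods give PBS as the control injection where no fibroblasts were given, which the sample labels do not record. The second table held 4 WT and 4 Col5a1CKO wounds treated with vehicle (PBS) and 4 Col5a1CKO wounds treated with cilengitide, an inhibitor of αv integrins. The Cre driver marks fibroblasts, whereas each library held all the cells of a biopsy from the middle of the wound. Fewer cells of a type and less RNA per cell cannot be told apart in such bulk RNA.

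Interferons are secreted proteins that cells release on sensing viral or misplaced nucleic acid, and that leukocytes release during inflammation. Type I interferons act through the receptor chains Ifnar1 and Ifnar2, whose signal leads to binding at the interferon-stimulated response element (ISRE), whereas interferon gamma acts through the gamma-activated site (GAS). The target genes block steps of viral replication, sense RNA and DNA, attract lymphocytes and raise antigen presentation. In skin they are expressed by keratinocytes, fibroblasts and leukocytes.

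Total counts ranged from 15043531 to 35700337 per library for the first table and from 51211600 to 68266760 for the second. Set against Col1a1, another fibroblast collagen gene, Col5a1 reached 10.6 to 17.5% of its counts in 14 of 14 WT wounds but 1.22 to 5.83% in 21 of 21 Col5a1CKO wounds, so every library matched its genotype label by this measure. As a level of its own Col5a1 did not pass the test at day 14, with 1069 ± 871 CPM (counts scaled to library size with TMM factors, 0.832 to 1.32 for libraries of the first table, 0.787 to 1.09 for those of the second; SD, n = 7) in WT and 397 ± 172 (n = 7) in Col5a1CKO wounds (log2 fold change −1.43, edgeR adjusted p = 0.0756). The day 14 libraries fell into 2 sets by how much GC-rich genes took of the counts relative to GC-poor ones. The first set held 4 WT with 5 Col5a1CKO libraries. The second held 3 WT with 2 Col5a1CKO libraries, and also every fibroblast-treated and day 19 library. RNA of the Y-linked gene Ddx3y marked 5 of 7 WT and 4 of 7 Col5a1CKO wounds at day 14 and none of the fibroblast-treated wounds. With vehicle it marked 2 of 4 WT and 3 of 4 Col5a1CKO wounds, and the remaining Col5a1CKO wound (replicate 2) had neither Ddx3y nor Xist RNA.

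Promoter sequence is shown because it bears the elements by which interferon acts on these genes. A RefSeq window (GRCm38.p6) from 250 bases before to 50 bases after the start was found for 30 of the 39 genes. The ISRE letters (GAAA, any 2 bases, GAAA), read on either strand, occurred in 16 of the 30 (53.3%) and in 3.99% of all 27025 genes with a window. The GAS letters (TTC, any 3 bases, GAA) occurred in 10 of the 30 (33.3%) and in 9.55% of all genes. The letters of both elements overlapped in 2 of the 36 windows of the members. A match is a description of these letters, not evidence of binding. The 250 bases before the start are given for members that lead the results below and for Tap1, which had neither match. They are written 5′ to 3′ on the strand of the gene, with the matches in capitals.
Isg15, a ubiquitin-like modifier (chr4:156200819-156201068, minus strand, 3 overlapping ISRE matches beginning 78, 72 and 66 bases before the start): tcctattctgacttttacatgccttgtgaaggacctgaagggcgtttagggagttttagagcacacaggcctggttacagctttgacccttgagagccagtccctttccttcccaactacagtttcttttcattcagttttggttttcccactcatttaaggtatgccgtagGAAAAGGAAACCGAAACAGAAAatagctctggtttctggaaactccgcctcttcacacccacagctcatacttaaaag
Rsad2, the antiviral enzyme viperin (chr12:26456453-26456702, minus strand, ISRE 120 bases before the start): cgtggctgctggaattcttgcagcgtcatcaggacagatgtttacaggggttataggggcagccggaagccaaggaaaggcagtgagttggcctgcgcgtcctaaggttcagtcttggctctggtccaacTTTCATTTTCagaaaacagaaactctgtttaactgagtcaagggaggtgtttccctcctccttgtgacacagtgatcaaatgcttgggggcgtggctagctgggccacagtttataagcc
Oas3, a synthetase of 2'-5' oligoadenylate (chr5:120777660-120777909, minus strand, ISRE 75 bases before the start): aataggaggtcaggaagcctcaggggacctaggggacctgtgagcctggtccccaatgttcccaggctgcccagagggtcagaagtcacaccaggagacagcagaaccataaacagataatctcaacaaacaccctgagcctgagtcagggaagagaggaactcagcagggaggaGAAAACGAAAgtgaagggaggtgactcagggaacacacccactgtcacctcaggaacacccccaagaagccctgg
Cxcl10, a lymphocyte chemokine (chr5:92348890-92349139, minus strand, ISRE 213 bases before the start): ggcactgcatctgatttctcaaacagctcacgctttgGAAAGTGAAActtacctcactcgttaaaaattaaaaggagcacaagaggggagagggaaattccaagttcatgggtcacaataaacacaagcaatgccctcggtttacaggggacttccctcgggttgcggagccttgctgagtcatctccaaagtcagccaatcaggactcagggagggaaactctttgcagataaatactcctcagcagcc
Gbp2, a guanylate-binding protein (chr3:142620413-142620662, plus strand, ISRE 59 bases before the start): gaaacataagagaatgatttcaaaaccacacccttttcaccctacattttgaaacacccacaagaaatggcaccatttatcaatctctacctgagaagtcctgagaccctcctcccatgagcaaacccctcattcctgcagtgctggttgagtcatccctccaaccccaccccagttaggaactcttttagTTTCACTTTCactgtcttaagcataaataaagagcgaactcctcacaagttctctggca
Irf1, an interferon-responsive transcription factor (chr11:53769764-53770013, plus strand, GAS 90 bases before the start): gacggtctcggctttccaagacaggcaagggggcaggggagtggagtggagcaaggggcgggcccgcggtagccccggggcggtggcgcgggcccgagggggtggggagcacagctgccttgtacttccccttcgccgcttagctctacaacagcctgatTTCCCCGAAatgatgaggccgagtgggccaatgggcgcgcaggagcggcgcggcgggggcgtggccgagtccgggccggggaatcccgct
Tap1, a peptide transporter (chr17:34187306-34187555, plus strand, no match): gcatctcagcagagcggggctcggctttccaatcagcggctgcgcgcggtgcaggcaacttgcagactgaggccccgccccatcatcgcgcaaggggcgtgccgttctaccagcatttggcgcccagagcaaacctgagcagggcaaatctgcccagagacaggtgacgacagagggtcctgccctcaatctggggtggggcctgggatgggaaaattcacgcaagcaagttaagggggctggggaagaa
The windows of Tap1 and Psmb9 shared 275 bases, since these genes start head to head on opposite strands.

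Several members lie side by side in the genome (NCBI37, the build of the counts). Chromosome 5 carried 8 of the 39, among them Cxcl9, Cxcl10 and Cxcl11 between 92750357 and 92794511 and Oas2, Oas3 and Oas1a between 121180342 and 121357536. Ifit2, Ifit3 and Ifit1 lay on chromosome 19 between 34625184 and 34724499, and Gbp5, Gbp3 and Gbp2 on chromosome 3 between 142159864 and 142300972. Members of the Oas, Ifit, Gbp and Mx families resemble each other and further copies in sequence, so how reads were divided among them is uncertain.

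Levels between genes were compared only per transcript length, as RPKM, reads scaled to transcript length and library size, in the first table. In WT wounds at day 14 the highest was Ifitm3, a membrane protein that blocks virus entry, with a median of 98.1 RPKM (72.9 to 120 in 7 wounds). Bst2, the virion-retaining protein tetherin, followed at 31.7 RPKM (15.1 to 53.0) and the immunoproteasome subunit Psmb8 at 17.7 (12.7 to 37.5). The lowest Ifitm3 value was above the highest of either, whereas the ranges of Bst2 and Psmb8 overlapped. Between these extremes lay Isg15 at a median of 13.0 RPKM, the master regulator Irf7 at 9.49, Gbp2 at 7.30, Cxcl10 at 4.24, Cxcl9 at 3.90 and the RNA sensor Ifih1 at 3.44. The lowest were Gbp5 at 0.486 RPKM, Mx2 at 0.255 and the chemokine Cxcl11, whose median was 0 and whose highest value was 0.109. In Col5a1CKO wounds at day 14 without fibroblasts the corresponding medians were 270 RPKM for Ifitm3, 28.2 for Isg15, 20.8 for Irf7, 12.7 for Gbp2, 8.55 for Cxcl10, 5.16 for Ifih1 and 2.58 for Cxcl9.

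**Figure D1:**
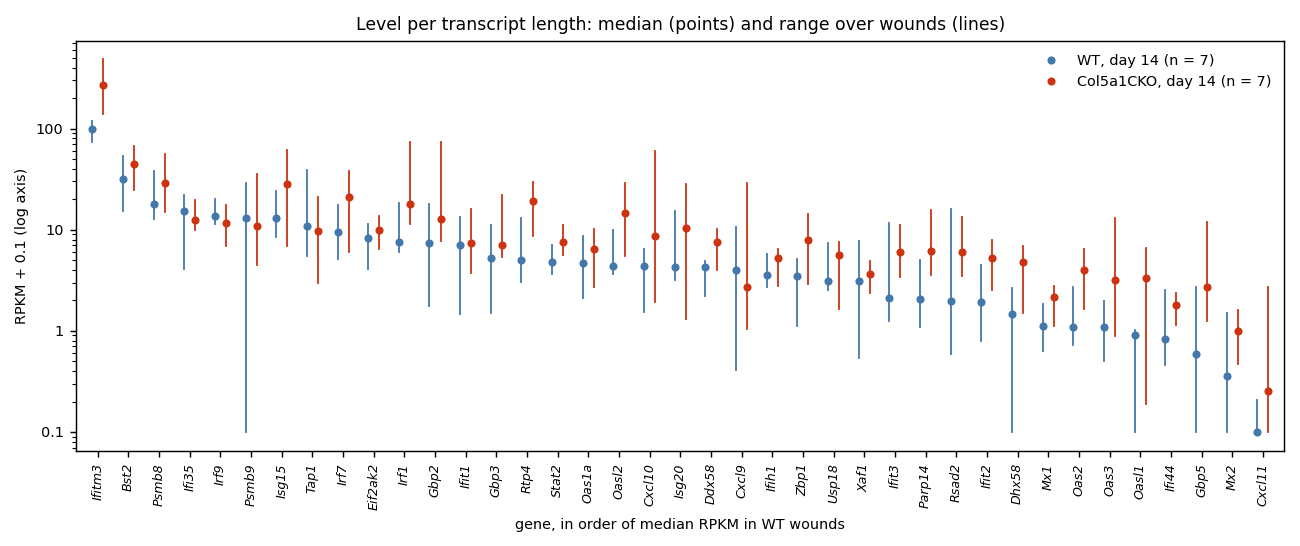
Level per transcript length of the 39 interferon-stimulated genes at day 14, in order of the WT median. The vertical axis is RPKM + 0.1 on a log axis, points are medians and lines span the 7 wounds of WT or Col5a1CKO. Ifitm3 stands highest in both genotypes, at medians of 98.1 and 270 RPKM, and Cxcl11 lowest in WT.

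**Figure D2:**
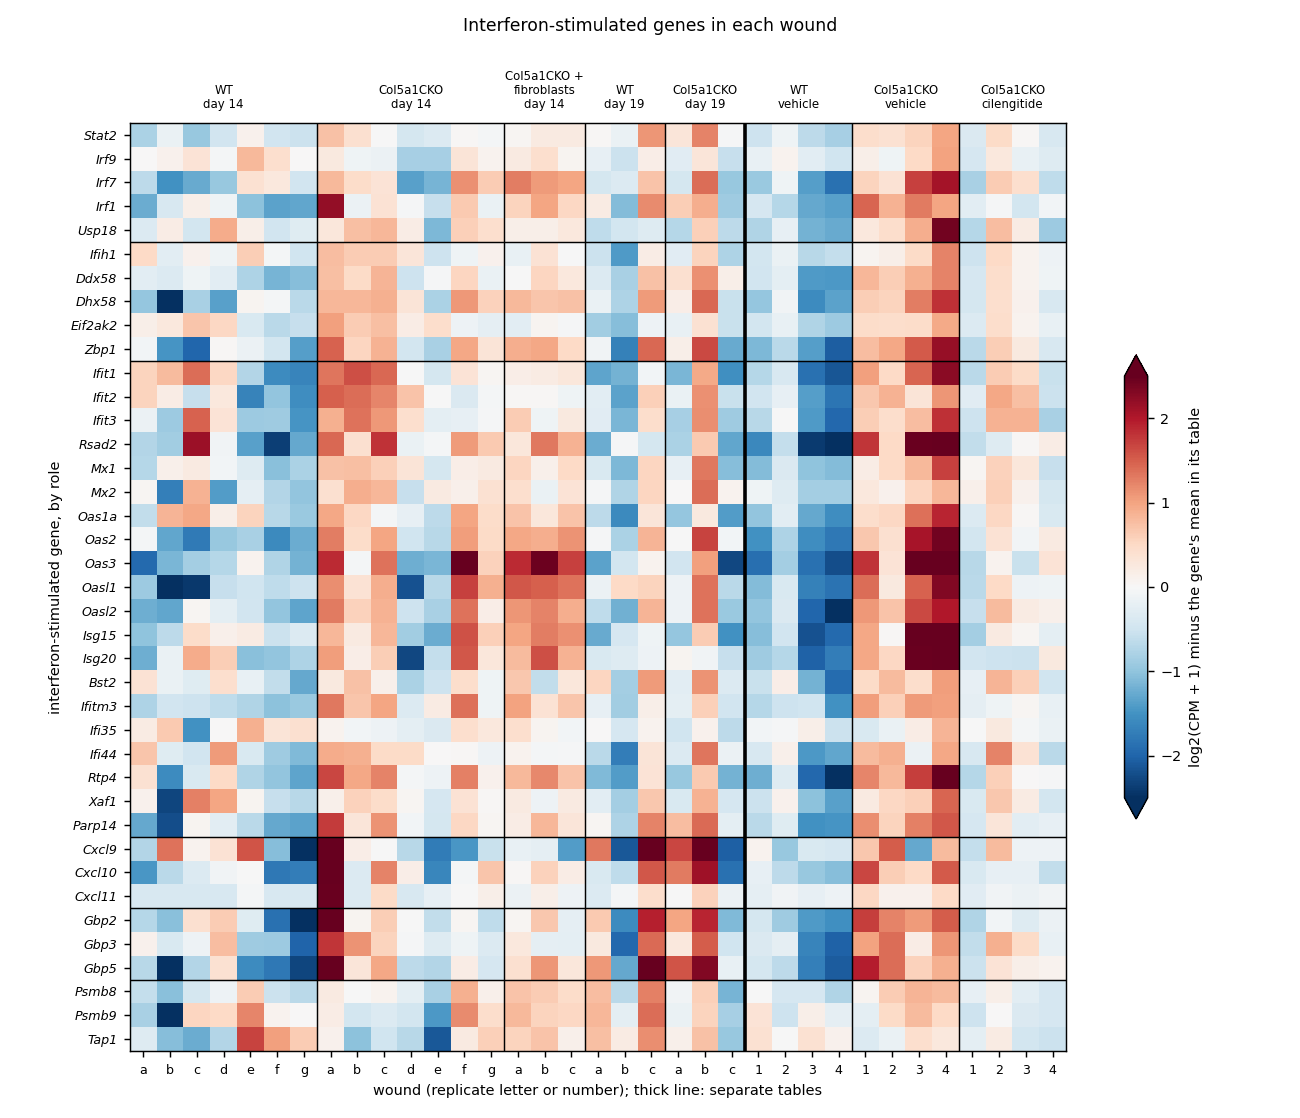
Level of each gene (rows, by role) in each of the 35 wounds (columns), as log2(CPM + 1) minus the gene's mean in its own table, so that colours compare wounds within a table and not between genes or tables. WT vehicle wounds are low and Col5a1CKO vehicle wounds high in nearly every row, while at day 19 a single wound of each genotype is high.

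The first question was whether loss of Col5a1 in fibroblasts went with a different interferon response in the wound at day 14. Ifitm3 was 2.75-fold higher in Col5a1CKO wounds, and 4 further effectors were 2.56- to 4.34-fold higher: Oas2, Oas3, Oasl2 and Parp14. Of 38 members tested, 5 were called higher and 0 lower (edgeR quasi-likelihood test, Benjamini-Hochberg adjusted p under 0.05 over all genes and at least 2-fold), beside 5.57% of 14367 genes called higher and 2.71% lower. The median log2 fold change was 0.81 over the members and −0.03 over all genes tested, with 34 members positive and 4 negative. All 5 called members were antiviral effectors, and none of the signalling genes, sensors, chemokines, guanylate-binding proteins or immunoproteasome genes was called. These counts depended on 1 library in several cases: 2 members were called without WT wound f or g or without Col5a1CKO wound a or c (Oas2 and Ifitm3 each time), and 3 without Col5a1CKO wound f. The share of all genes called higher was also smaller in these fits, at 3.39 to 4.12%. Within the first library set 1 member was called (Ifitm3), beside 3.68% of all genes called higher. Within the second set 8 were called, beside 8.81% of all genes, and there genotype and sex RNA coincided and cannot be told apart.

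Among the effectors, Ifitm3 lay at 74.3, 90.5 and 110 CPM (lowest, median, highest) in the 7 WT wounds and at 120, 249 and 397 in the 7 Col5a1CKO wounds. Every Col5a1CKO wound was above every WT wound, the single member for which this held, beside 2.31% of all genes. The log2 fold change was 1.46 ± 0.27 (SE; edgeR adjusted p = 0.00693). Oas2, which with Oas3 makes the second messenger that activates RNase L, lay at 3.59, 5.65 and 14.1 CPM in WT and at 8.64, 20.7 and 37.1 in Col5a1CKO wounds. The groups overlapped, since the highest WT wound (a) reached into the lower Col5a1CKO values, and the log2 fold change was 1.72 ± 0.40 (edgeR adjusted p = 0.0161). Parp14, a mono-ADP-ribosyltransferase, lay at 10.1, 20.2 and 52.5 CPM in WT and at 36.6, 62.1 and 173 in Col5a1CKO wounds (log2 fold change 1.51 ± 0.40, edgeR adjusted p = 0.0271). Its groups overlapped as well. Oas3 lay at 2.66, 6.82 and 13.9 CPM in WT and at 5.03, 19.9 and 78.0 in Col5a1CKO wounds (2.12 ± 0.59, edgeR adjusted p = 0.0344), again with overlap. Oasl2, an oligoadenylate synthetase-like protein, had a log2 fold change of 1.36 ± 0.37 (edgeR adjusted p = 0.0319).

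Members of the other roles were not called at day 14. Irf1 had a log2 fold change of 1.30 (edgeR adjusted p = 0.0685), and its range in Col5a1CKO wounds, 34.8 to 241 CPM, covered the upper part of the WT range of 19.96 to 57.4. Irf9, a subunit of the ISRE-binding complex, had a log2 fold change of −0.38. The RNA sensor Ddx58 (RIG-I) passed the p threshold at 0.89 (edgeR adjusted p = 0.0447) but not the 2-fold limit. Zbp1, a sensor of Z-form nucleic acid, stood at 1.29 (edgeR adjusted p = 0.0735). Cxcl10 lay at 2.41, 6.37 and 10.7 CPM in WT and at 2.81, 12.2 and 98.4 in Col5a1CKO wounds, with 1 Col5a1CKO wound far above the others, and its log2 fold change of 2.01 ± 0.67 did not pass (edgeR adjusted p = 0.0678). Gbp2 had a similar spread, at 6.15, 25.2 and 66.1 CPM in WT and 26.9, 43.4 and 280 in Col5a1CKO wounds (1.28 ± 0.61, edgeR adjusted p = 0.193). In both genes the highest value came from Col5a1CKO wound a, which was highest of its group in 16 of the 39 members. Tap1 had a log2 fold change of −0.62 (edgeR adjusted p = 0.447). Cxcl11 was too low to be tested.

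Macrophage and endothelial markers moved with genotype in the same wounds, and neutrophil markers did so in part. Ptprc, the pan-leukocyte gene of CD45, ranged from 29.0 to 126 CPM in WT and from 139 to 772 in Col5a1CKO wounds (log2 fold change 2.14, edgeR adjusted p = 0.0104). The summed level of 6 macrophage and monocyte markers ranged from 255 to 893 CPM in WT and from 982 to 2711 in Col5a1CKO wounds. Of the 6, 4 were called higher, as were 2 of 5 neutrophil markers. The neutrophil sums overlapped, at 1144 to 8929 CPM in WT and 1656 to 19693 in Col5a1CKO wounds. T and NK cell markers did not follow, with 1 of 7 tested called higher but 5 negative, and a summed median of 31.1 CPM in WT and 26.1 in Col5a1CKO wounds. All 3 endothelial markers, Pecam1, Cdh5 and Kdr, were called higher, with sums of 48.3 to 185 CPM in WT against 172 to 422 with Col5a1 deleted. The 6 keratinocyte markers summed to 30518 to 151800 CPM in WT (median 33973). In Col5a1CKO wounds they summed to 31.7 to 56681 (median 730), with none called. The part of these cells in the interferon result was not tested.

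**Figure D3:**
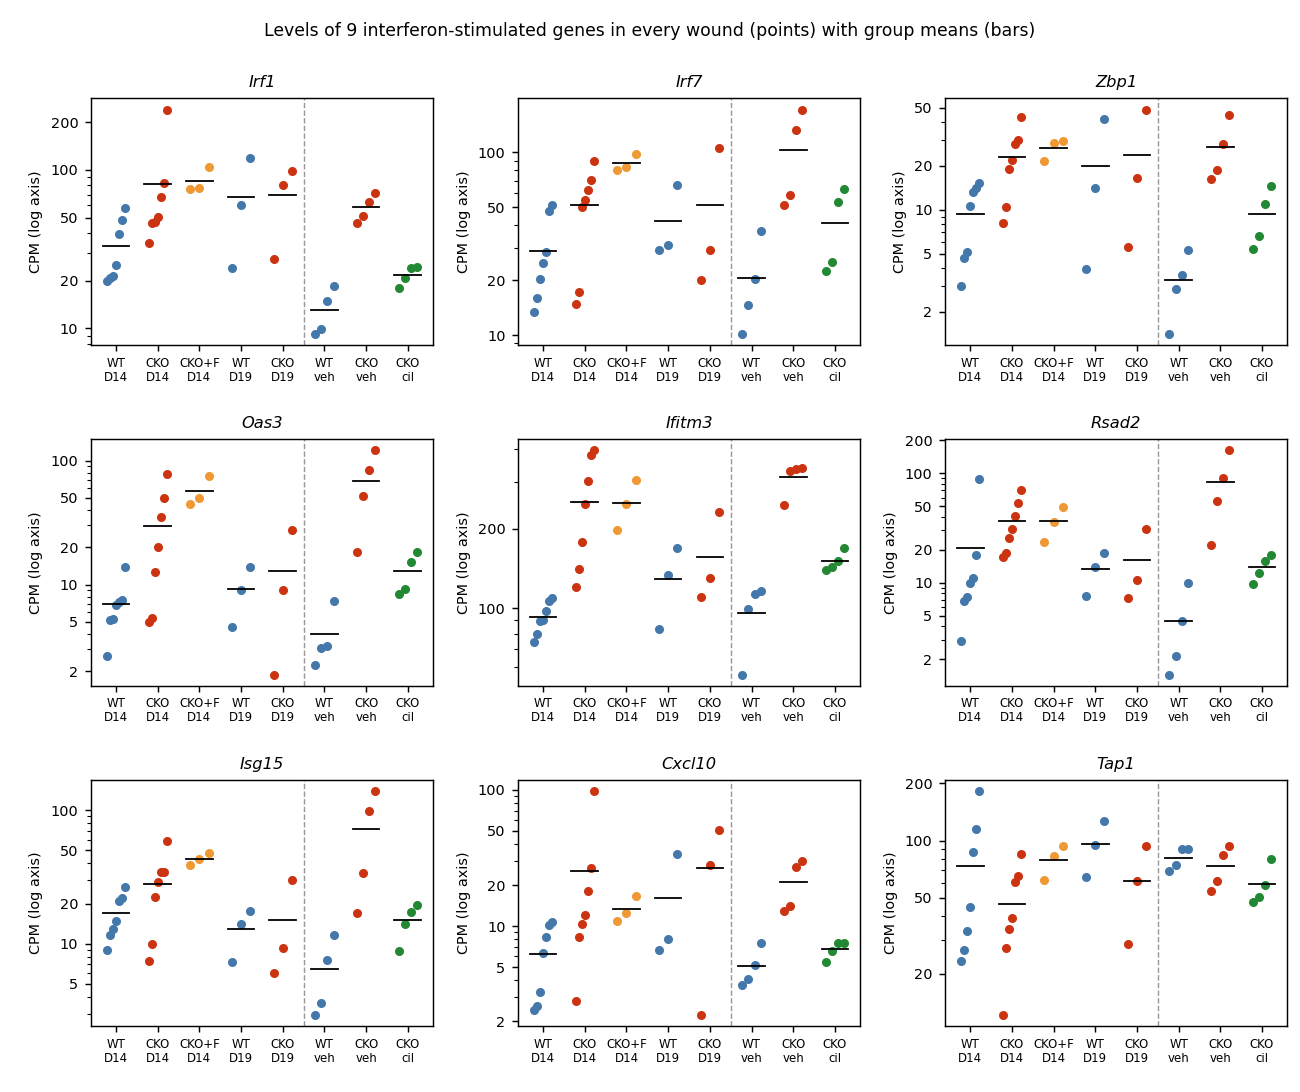
Levels of 9 interferon-stimulated genes in every wound. The vertical axes are CPM on a log axis, points are wounds, bars are group means, and the dashed line separates the first table from the cilengitide table. At day 14 the WT and Col5a1CKO points of Ifitm3 do not overlap, and with vehicle those of Irf1, Zbp1, Oas3, Rsad2 and Cxcl10 do not overlap either, while those of Tap1 do.

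At day 19 no member was called between genotypes. The record of the day 19 Col5a1CKO wounds also names a WT fibroblast treatment, while the sample titles, which were followed here, give it for day 14. Of 38 members tested, edgeR called 0 higher and 0 lower, and 0 passed an unadjusted p under 0.05, beside 0.0198% of 15135 genes called higher (3 genes) and 0.0% lower. DESeq2 also called 0 members, beside 4.52% of all genes higher and 4.71% lower. The median log2 fold change was 0.33 over the members and −0.01 over all genes, but the members' median was −0.45 without Col5a1CKO wound b, 0.72 without Col5a1CKO wound c and 0.98 without WT wound c, so its sign and size rested on single wounds. The 3 members with the smallest p were Eif2ak2, the kinase that halts translation on binding double-stranded RNA, at a log2 fold change of 0.63 ± 0.38 (edgeR adjusted p = 0.336), the immunoproteasome subunit Psmb9 at −0.85 ± 0.57 and Ifi44 at 1.20 ± 0.91. Eif2ak2 lay at 24.0, 20.6 and 40.4 CPM in WT wounds a, b and c and at 38.7, 58.0 and 29.7 in Col5a1CKO wounds a, b and c. The groups overlapped, with WT wound c and Col5a1CKO wound b the highest.

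The spread at day 19 ran between wounds of the same genotype and was shared by almost all members. WT wound c was highest of its group in 38 of 39 members and Col5a1CKO wound b in 38 of 39, while Col5a1CKO wound c was lowest in 36 and WT wound b in 30. Gbp2 lay at 66.6, 13.5 and 166 CPM in the WT wounds a, b and c and at 84.5, 159 and 19.1 in the Col5a1CKO wounds. Cxcl9, an interferon gamma-induced chemokine, lay at 40.4, 2.80 and 106 CPM in WT and at 51.8, 122 and 3.04 in Col5a1CKO wounds. Both genes thus varied more within each genotype than between them. Ptprc followed a similar order, at 92.8, 18.2 and 164 CPM in WT and 157, 161 and 27.5 in Col5a1CKO wounds, and its part in the spread was not tested.

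The change in the genotype difference from day 14 to day 19 was tested as an interaction. edgeR called 0 of 39 members (0.0% of 15954 genes), and 1 member passed an unadjusted p under 0.05. DESeq2 called 0 members, beside 0.15% of all genes higher and 0.1% lower. That member was Ifitm3, at a log2 difference of −1.14 ± 0.50 (edgeR adjusted p = 0.762), that is, a smaller genotype difference at day 19. Psmb8 at −1.15 ± 0.63 and Cxcl11 at −4.14 ± 2.28 followed. The median over the members was −0.54, against −0.01 over all genes, and the 3 against 3 wounds of day 19 left SEs of 0.42 to 2.28.

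WT fibroblasts injected into the wound bed were compared with the day 14 Col5a1CKO wounds without fibroblasts to ask whether the added cells changed the response. Among 39 members tested edgeR called 0 and 0 passed an unadjusted p under 0.05, beside 0.0% of 15659 genes called in either direction. DESeq2 also called 0 members, beside 0.0575% of all genes higher and 0.0639% lower. The median log2 fold change was 0.02 over the members and −0.04 over all genes. The smallest p belonged to Ifit2, an RNA-binding effector, at 16.5, 16.6 and 15.0 CPM in the treated wounds a, b and c against 12.3, 27.3 and 47.2 (lowest, median, highest) in the 7 wounds without fibroblasts. The treated values lay inside the range of the latter, and the log2 fold change was −0.84 ± 0.44 (edgeR adjusted p = 0.424). Eif2ak2 at −0.53 ± 0.29 and Psmb8 at 0.50 ± 0.29 were next. The directions of Ifit2 and Eif2ak2 turned when the library set was taken into account, to log2 fold changes of 0.20 and 0.11.

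Against WT wounds the fibroblast-treated Col5a1CKO wounds had higher Irf7, Irf1, Isg15, Ifitm3 and 3 oligoadenylate synthetase genes. Of 38 members 7 were called higher and 0 lower, beside 3.77% of 15316 genes called higher and 2.06% lower, and the median log2 fold change was 0.95 over the members and 0.03 over all genes. Treated wounds shared their letters with WT wounds, and with the letter as a block 11 members were called higher, beside 9.98% of 14606 genes called higher and 11.8% lower in that fit. The blocked fit held only wounds a, b and c of each group. Those WT wounds were all of the first library set and the treated wounds all of the second. The group difference and the library set thus cannot be told apart in it. Every treated wound was above every WT wound in 14 members, beside 9.92% of all genes. The WT wounds are those of the day 14 comparison above, so the comparisons are not independent. Without treated wound a or b 4 members were called and without c 3, beside 1.64, 1.71 and 1.33% of all genes called higher. All 3 treated wounds carried Xist RNA, as did 2 of the 7 WT wounds.

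Oas3 lay at 50.2, 75.6 and 44.9 CPM in the treated wounds and at most at 13.9 in WT. All 3 treated wounds were thus above the WT range, with a log2 fold change of 3.17 ± 0.40 (edgeR adjusted p = 0.00162). Irf7 lay at 98.2, 83.5 and 79.8 CPM against 13.3, 24.8 and 51.7 (lowest, median, highest) in WT (1.74 ± 0.39, edgeR adjusted p = 0.0231). Irf1 lay at 77.1, 104 and 75.3 CPM against 19.96, 25.03 and 57.4 (1.5 ± 0.37, edgeR adjusted p = 0.0334). For neither transcription factor did the groups overlap. Oasl2 lay at 94.8, 105 and 82.5 CPM against 16.8, 21.3 and 45.2 (1.96 ± 0.33, edgeR adjusted p = 0.00568), and Ifitm3 at 307, 198 and 247 CPM against 74.3, 90.5 and 110 (1.58 ± 0.22, edgeR adjusted p = 0.00261). These were separated as well, and Ptprc at 209 to 345 CPM was also above every WT wound. Its part in these differences was not tested. Cxcl9, at 13.5, 13.2 and 5.33 CPM, lay inside the WT range of 1.35 to 48.4.

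In the cilengitide experiment the vehicle-treated wounds gave a second comparison of the genotypes, in a separate set of wounds. Nearly the whole list was higher in Col5a1CKO wounds, by up to 17.7-fold for Rsad2. Of 39 members 32 were called higher and 0 lower, beside 17.5% of 15434 genes called higher and 13.4% lower, and the median log2 fold change was 2.08 over the members against 0.02 over all genes. Every Col5a1CKO wound was above every WT wound in 33 members, beside 24.1% of all genes. By role, 4 of 5 signalling genes, 5 of 5 sensors, 18 of 20 effectors, 2 of 3 chemokines, 3 of 3 guanylate-binding proteins and 0 of 3 immunoproteasome and transport genes were called. Leaving out any 1 wound left 27 to 33 calls. The 2 WT and 3 Col5a1CKO wounds with Y-linked RNA alone gave 8, beside 7.03% of all genes called higher, a restriction chosen after the data were seen. The members' median log2 fold change in that fit was 2.08.

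Of the signalling genes, Irf1 lay at 18.5, 14.9, 9.83 and 9.21 CPM in WT wounds 1 to 4 and at 71.2, 46.6, 63.2 and 51.2 in Col5a1CKO wounds 1 to 4. The groups were far apart, with a log2 fold change of 2.10 ± 0.27 (edgeR adjusted p = 0.00114). Irf7 lay at 20.3, 37.0, 14.6 and 10.1 CPM in WT and at 58.6, 51.2, 133 and 171 in Col5a1CKO wounds. Col5a1CKO wounds 3 and 4 were the highest, and the log2 fold change was 2.28 ± 0.54 (edgeR adjusted p = 0.0104). Stat2 had a log2 fold change of 1.10 ± 0.20 (edgeR adjusted p = 0.00377), and Irf9 had 0.61 and was not called (edgeR adjusted p = 0.0776).

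Among the sensors, Zbp1 lay at 3.60, 5.27, 2.86 and 1.41 CPM in WT and at 16.3, 18.7, 28.1 and 44.6 in Col5a1CKO wounds, without overlap (log2 fold change 2.98 ± 0.48, edgeR adjusted p = 0.00241). Ddx58 followed at 1.72 ± 0.32 (edgeR adjusted p = 0.00433) and Eif2ak2 at 1.13 ± 0.20 (edgeR adjusted p = 0.00327). Ifih1 (MDA5) and Dhx58 (LGP2), the other RNA helicases of the list, were also called, at 1.02 and 2.19.

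The largest log2 fold changes of the list were those of the effectors Rsad2 and Oas3. Rsad2 lay at 4.43, 9.98, 2.16 and 1.45 CPM in WT and at 55.9, 22.3, 90.3 and 162 in Col5a1CKO wounds (4.14 ± 0.83, edgeR adjusted p = 0.00554). Oas3 lay at 3.09, 7.37, 3.18 and 2.25 CPM in WT and at 51.9, 18.3, 84.5 and 122 in Col5a1CKO wounds (4.06 ± 0.66, edgeR adjusted p = 0.00248). In both genes WT wound 2 was the highest WT value and Col5a1CKO wound 2 the lowest Col5a1CKO value, still above it. Isg15 showed the same order at the top, with 33.7, 17.1, 99.4 and 140 CPM in Col5a1CKO wounds against 7.50, 11.7, 2.91 and 3.60 in WT (3.44 ± 0.77, edgeR adjusted p = 0.00859). Ifitm3 was more even, at 98.8, 113, 116 and 56.0 CPM in WT and 336, 246, 340 and 332 in Col5a1CKO wounds (1.66 ± 0.25, edgeR adjusted p = 0.00193), and Parp14 had a log2 fold change of 2.08 ± 0.35 (edgeR adjusted p = 0.00275). Ifi35 at 0.26 and Ifi44 at 1.58 (edgeR adjusted p = 0.0537) were the 2 effectors not called.

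Cxcl10 lay at 7.52, 5.20, 4.06 and 3.70 CPM in WT and at 30.1, 14.0, 12.9 and 27.3 in Col5a1CKO wounds (1.99 ± 0.36, edgeR adjusted p = 0.00386), with no overlap. Cxcl9, which binds the same receptor, lay at 9.77, 4.32, 6.87 and 6.60 CPM in WT and at 15.4, 28.1, 3.18 and 16.5 in Col5a1CKO wounds. Col5a1CKO wound 3 was below all WT wounds, and Cxcl9 was not called (1.16 ± 0.58, edgeR adjusted p = 0.128). Cxcl11 was called at 2.55 ± 0.61 (edgeR adjusted p = 0.0108) with every wound under 1 CPM. Gbp2 lay at 25.6, 18.5, 12.5 and 11.4 CPM in WT and at 119, 84.3, 74.9 and 102 in Col5a1CKO wounds (2.44 ± 0.30, edgeR adjusted p = 0.00102), and its neighbours Gbp5 and Gbp3 were called at 2.79 and 1.92. All 3 guanylate-binding proteins, GTPases that attack the vacuoles of intracellular pathogens, were thus separated between the genotypes.

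None of the immunoproteasome and transport genes, which cut and carry peptides for MHC class I, was called. Psmb8 lay at 46.2, 34.7, 34.9 and 27.2 CPM in WT and at 49.3, 73.5, 84.4 and 81.3 in Col5a1CKO wounds, and its log2 fold change of 0.97 ± 0.22 passed the p threshold but not the 2-fold limit (edgeR adjusted p = 0.00843). Psmb9 had 0.44 ± 0.27 (edgeR adjusted p = 0.215). Tap1 lay at 90.3, 68.9, 90.4 and 74.5 CPM in WT and at 54.1, 61.6, 93.4 and 83.7 in Col5a1CKO wounds (−0.19 ± 0.20, edgeR adjusted p = 0.442), with full overlap. Tap1 is the member shown above whose promoter window held neither match. Irf7, called higher in the same comparison, had no match either. Across the 30 members with a window, all 16 with ISRE letters were called in the vehicle comparison and 7 of the 14 without them, with median log2 fold changes of 2.01 and 1.53. For GAS letters the counts were 8 of 10 with and 15 of 20 without. These splits are descriptions without a test.

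The day 14 and the vehicle comparison share no wounds. Of the 38 members tested in both, 34 (89.5%) had a positive log2 fold change in both, beside 39.6% of the 14311 genes tested in both, and 5 were called higher in both (Oas2, Oas3, Oasl2, Ifitm3 and Parp14).

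**Figure D4:**
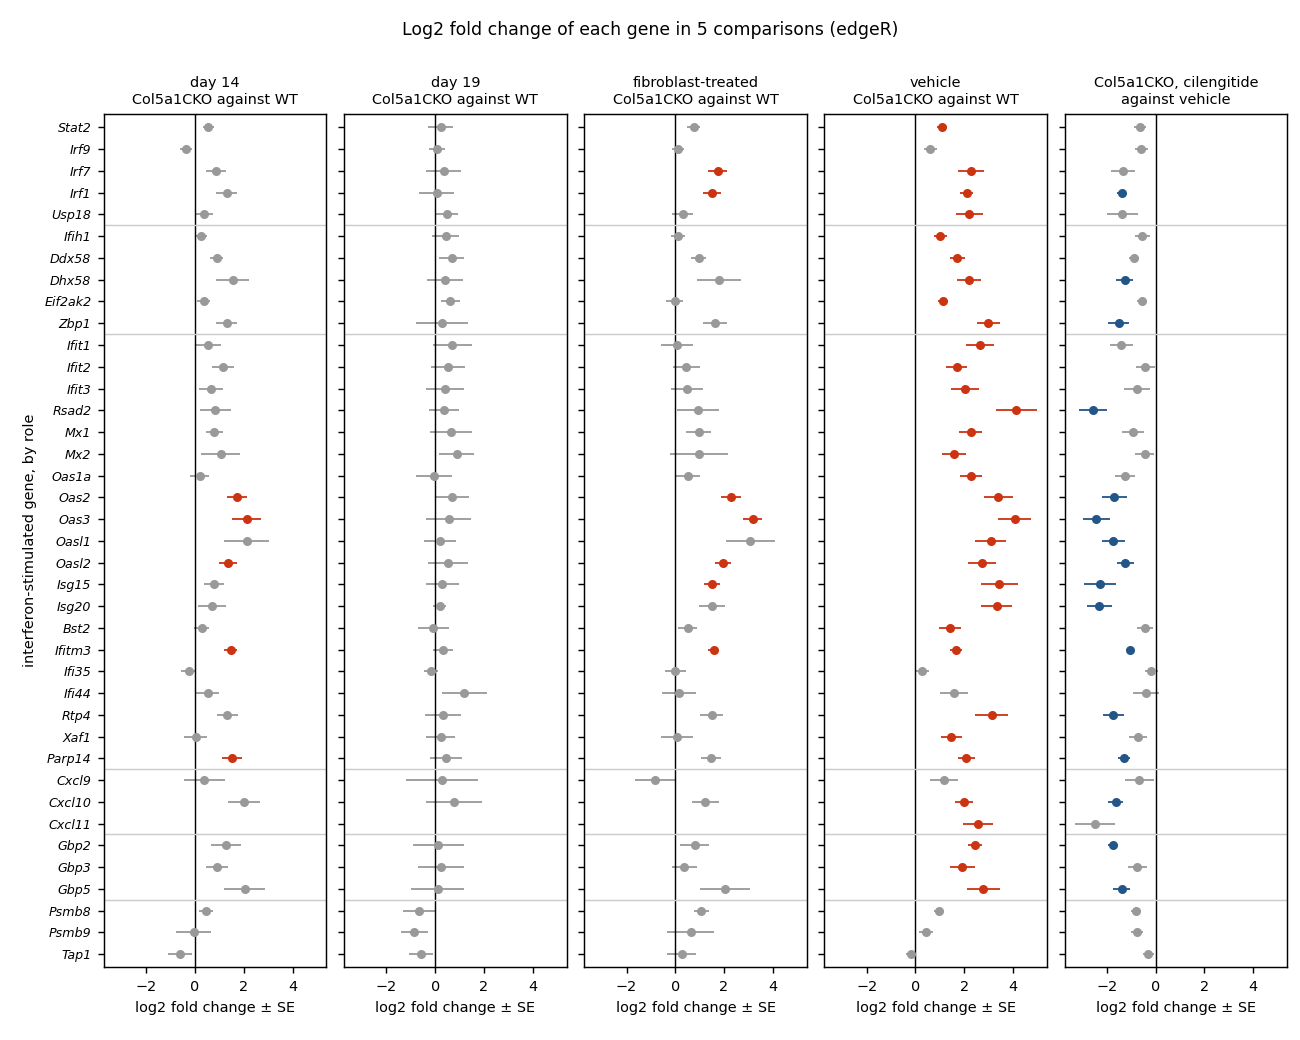
Log2 fold change of each gene (rows, by role) in 5 comparisons, with horizontal bars of ± 1 SE from edgeR. Red points were called higher, blue points lower and grey points neither. In the vehicle panel 32 points are red and in the cilengitide panel 16 are blue, while the day 19 panel holds grey points alone.

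Leukocyte and keratinocyte markers also differed between the vehicle-treated genotypes. Ptprc ranged from 34.9 to 53.9 CPM in WT and from 270 to 1008 in Col5a1CKO wounds (log2 fold change 3.85, edgeR adjusted p = 0.00107). All 6 macrophage and monocyte markers and 4 of 5 neutrophil markers were called higher, with summed macrophage markers of 139 to 383 CPM in WT and 1569 to 6709 in Col5a1CKO wounds. Of 8 T and NK cell markers 1 was called higher and 3 lower, among the latter Nkg7 at −2.60. Of 3 endothelial markers 1 was called higher (Pecam1), with sums of 38.5 to 272 CPM in WT against 308 to 757 with Col5a1 deleted. The summed keratinocyte markers ranged from 58613 to 95139 CPM in WT and from 60.0 to 11486 in Col5a1CKO wounds. Their part in the interferon result was not tested.

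**Figure D5:**
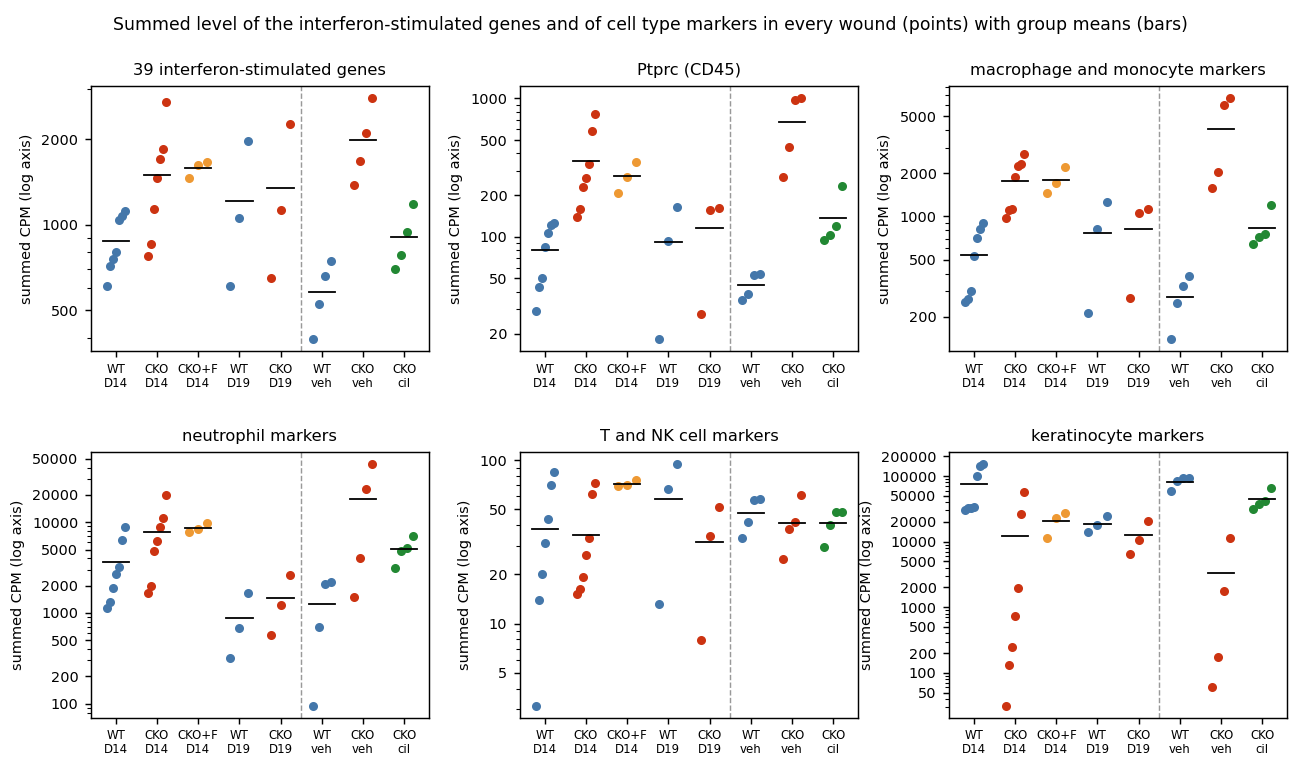
Summed level of the 39 interferon-stimulated genes and of cell type marker lists in every wound. The vertical axes are summed CPM on a log axis, points are wounds, bars are group means, and the dashed line separates the tables. The interferon-stimulated genes and the leukocyte and macrophage markers are higher, and the keratinocyte markers lower, in Col5a1CKO vehicle wounds (member sums 1387 to 2798 CPM) than in WT vehicle wounds (396 to 745).

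Cilengitide was compared with vehicle in Col5a1CKO wounds to ask whether blocking αv integrins changed the response. Rsad2, Oas3, Isg20 and Isg15 were 4.83- to 5.92-fold lower, and all 39 members had a negative log2 fold change. Of the 39, 16 were called lower and 0 higher, beside 6.59% of 15563 genes called lower and 6.48% higher, and the median log2 fold change was −1.24 over the members and −0.06 over all genes. Every cilengitide wound was below every vehicle wound in 14 members, beside 13.4% of all genes. The calls comprised 1 of 5 signalling genes, 2 of 5 sensors, 10 of 20 effectors, 1 of 3 chemokines, 2 of 3 guanylate-binding proteins and 0 of 3 immunoproteasome and transport genes. The 4 vehicle-treated Col5a1CKO wounds are those of the genotype comparison above, so both comparisons share them. Without cilengitide wound 1, 3 or 4 the calls fell to 4, 6 and 7, beside 2.12, 2.2 and 5.74% of all genes called lower. Without vehicle wound 3 they fell to 7, beside 2.57%. Among the wounds with Y-linked RNA alone (2 against 3) they fell to 0, where 0.0126% of all genes were called lower. The members' median log2 fold change in that fit was −1.58. Xist RNA was present in 2 of the 4 cilengitide and in 0 of the 4 vehicle wounds.

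Irf1 lay at 20.8, 24.5, 18.0 and 24.1 CPM in cilengitide wounds 1 to 4, all below the vehicle wounds, with wounds 1, 2 and 4 above the highest WT wound at 18.5 (log2 fold change against vehicle −1.40 ± 0.17, edgeR adjusted p = 0.00395). Zbp1 lay at 5.36, 14.5, 11.0 and 6.64 CPM (−1.52 ± 0.42, edgeR adjusted p = 0.0353), between the highest WT wound at 5.27 and the lowest vehicle-treated Col5a1CKO wound at 16.3. Dhx58, a regulator of RIG-I and MDA5, lay at 6.99, 13.5, 10.7 and 7.15 CPM against 15.7, 14.8, 25.2 and 37.3 with vehicle (−1.27 ± 0.36, edgeR adjusted p = 0.0372). None of these 3 overlapped with vehicle.

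Among the effectors, Rsad2 lay at 9.78, 12.3, 15.8 and 17.9 CPM with cilengitide, below the vehicle range of 22.3 to 162 (−2.57 ± 0.56, edgeR adjusted p = 0.0181). Ifitm3 lay at 139, 151, 168 and 143 CPM, below the 246 to 340 of vehicle and above the 56.0 to 116 of WT (−1.05 ± 0.16, edgeR adjusted p = 0.00618). Parp14 had a log2 fold change of −1.32 ± 0.25 (edgeR adjusted p = 0.0113). Isg15 lay at 8.83, 19.6, 17.4 and 14.0 CPM and overlapped with vehicle through vehicle wound 2 at 17.1 (−2.27 ± 0.65, edgeR adjusted p = 0.0382).

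Cxcl10 lay at 6.58, 7.50, 7.50 and 5.44 CPM with cilengitide, all below vehicle and inside the WT range of 3.70 to 7.52 (−1.63 ± 0.31, edgeR adjusted p = 0.0115). Gbp2 lay at 20.4, 33.4, 27.7 and 31.6 CPM (−1.74 ± 0.21, edgeR adjusted p = 0.00339), and Gbp5, which supports inflammasome assembly, had −1.39 ± 0.36 (edgeR adjusted p = 0.0274). Both were below every vehicle wound. Psmb8 at −0.79 and Psmb9 at −0.77 passed the p threshold without reaching 2-fold (edgeR adjusted p = 0.0269 and 0.0484), and Tap1 stood at −0.30. Ptprc at 95.1 to 234 CPM was lower than with vehicle (−2.29, edgeR adjusted p = 0.0184), 4 of 6 macrophage and monocyte markers and 1 of 5 neutrophil markers were called lower, and the keratinocyte markers summed to 31809 to 65627 CPM. Their part in the difference was not tested. Cilengitide wound 2 was highest of its group in 34 of 39 members and wound 1 lowest in 23.

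Compared with vehicle-treated WT, cilengitide-treated Col5a1CKO wounds still had higher levels of 4 members. These 4 of 38 tested stood beside 5.15% of 15514 genes called higher and 3.43% lower, with 0 members lower and a median log2 fold change of 1.0 over the members against −0.01 over all genes. Oas2 lay at 5.10, 9.80, 7.02 and 8.81 CPM with cilengitide and at 1.92, 3.92, 1.83 and 1.41 in WT, without overlap (1.75 ± 0.35, edgeR adjusted p = 0.0212). Oas3 had 1.68 ± 0.42 (edgeR adjusted p = 0.0309), Zbp1 1.51 ± 0.44 (edgeR adjusted p = 0.047) and Mx1, a dynamin-like GTPase that is defective in most inbred mouse strains, 1.40 ± 0.40 (edgeR adjusted p = 0.0429). Every cilengitide wound was above every WT wound in 5 members, beside 14.5% of all genes. Leaving out 1 wound gave between 0 and 14 calls. There were 14 without WT wound 2, beside 7.56% of all genes called higher, and 1 without WT wound 1 or 4, beside 4.54 and 1.82%. There were 0 without WT wound 3, beside 0.551% of all genes. Without cilengitide wound 2, 3 or 4 there were also 0, and almost no gene was called higher (0.0191, 0.00638 and 0.00635% of all genes). The count of members fell to 0 with all groups in a single fit, beside 1.95% of all genes called higher.

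The interferon genes that were looked up were barely counted, and no values are given for other genes of the family. Ifnb1, the interferon beta gene, had 0 counts in 32 of 35 libraries and 4, 3 and 11 counts in Col5a1CKO wounds a and g of day 14 and vehicle wound 4. Ifng, the interferon gamma gene, had counts in 26 of 35 libraries, at most 41 (2.37 CPM) in Col5a1CKO wound a of day 14 and at most 18 in the cilengitide table. Ifna2 and Ifna4 had 0 counts in all 35, and Ifne, the interferon epsilon gene, 1 count in each of 2 libraries. Ifnk, the interferon kappa gene of keratinocytes, had counts in 10 of 35 libraries. In the cilengitide table it had 6, 21 and 2 counts in WT wounds 1, 2 and 3 and 0 in WT wound 4 and in every Col5a1CKO wound, and in the first table at most 5. A count of 0 allows up to 3 counts, or 0.0829 to 0.220 CPM with the first table's depth and 0.0419 to 0.0667 CPM with the second's, and covers counting error only. These limits take each count as 1 read. In the cilengitide table rows with 2 counts outnumbered rows with 1 count, and if reads were counted more than once there the limits would be higher.

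Of 27 further genes of the pathway, 17 were tested at day 14. Of these 5 were called higher and 0 lower, beside 5.57% of all genes called higher and 2.71% lower. Ifnar1 lay at 44.8, 50.4 and 74.4 CPM in WT and at 88.0, 128 and 192 in Col5a1CKO wounds (lowest, median, highest), without overlap (1.20, edgeR adjusted p = 0.00489). Ifnar2 at 1.35, the myeloid factor Irf8 at 1.36 and the kinase Jak2 at 1.36 were called as well (edgeR adjusted p = 0.0189, 0.0161 and 0.0212), and Tmem173 (STING), which relays cytosolic DNA sensing, at 1.29 (edgeR adjusted p = 0.0439). At day 19 none of 17 was called, beside 0.0198% of all genes called higher.

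With vehicle, 9 of 17 tested pathway genes were called higher and 1 lower in Col5a1CKO wounds. Beside them 17.5% of all genes were called higher and 13.4% lower. Ifnar1 rose from 42.5 to 65.3 CPM in WT to 149 to 232 (1.81, edgeR adjusted p = 0.00094), and Ifnar2, Jak2 and Tlr7, an endosomal RNA receptor, were called at 2.48, 2.27 and 3.01. Mavs, the mitochondrial adaptor of RIG-I and MDA5, was the gene called lower, at 33.4 to 42.4 CPM in WT and 13.0 to 18.4 in Col5a1CKO wounds (−1.35, edgeR adjusted p = 0.00081). With cilengitide 6 of 17 were called lower than with vehicle and 0 higher, beside 6.59% of all genes called lower and 6.48% higher. Among the 6 were Ifnar1 at −1.18, Ifnar2 at −1.58, Jak2 at −1.37 and Irf8 at −1.20. In the fibroblast-treated wounds 0 of 18 were called against Col5a1CKO wounds without fibroblasts, beside 0.0% of all genes. Called higher than in WT were 4, beside 3.77% of all genes: Ifnar1, Ifnar2, Il10rb and Irf8.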

How the data were processed

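RNA from 35 wound samples of mouse skin was sequenced by the authors as single-end reads from a stranded kit, aligned with HISAT2 to mm9 (NCBI37) per the labels, and counted in SeqMonk over exons of RefSeq genes. The authors deposited raw counts per transcript row (29082 rows, with RPKM beside them) for the first table and raw counts per gene for the cilengitide table, whose counter is not given in the sources used here. The RPKM values given here were computed from the counts, the transcript lengths and each library's total over all rows. They were used only to compare levels between genes. In the cilengitide table rows with 2 counts were 1.57 to 3.65 times as common as rows with 1 count (0.521 to 1.13 in the first table).

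Of the rows of a symbol, that with the largest total was used, and rows without a symbol (at most 0.0694% of counts) were left out. Genes were filtered with filterByExpr (minimum count 10), scaled by TMM and tested with edgeR 4.0.16 (R 4.3.3, quasi-likelihood, robust), each comparison on its own groups. Calls needed a Benjamini-Hochberg adjusted p under 0.05 over all genes tested and a fold change of 2. CPM were computed with TMM factors over all groups of a table. Alternatives covered DESeq2 1.42.0, other scalings and filters, 3-fold calls, the library set, the replicate block and omission of each wound. The fit was tested on simulated counts. Replicates were separate biological samples by the study's methods. No libraries of a group agreed within sampling noise, and tables were tested apart. Wounds with the same letter in the fibroblast-treated and WT groups deviated together in all 3 pairs (correlations over 0.1, lowest 0.163), so the blocked count is printed for that comparison. The members, gene lists and tests were chosen with earlier results of these data known. Called members were given with values for up to 3 per role and comparison by smallest p, together with members whose promoters are printed. Values of 1 further gene of the pathway are not reported here.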

Additional observations from a re-analysis of the deposited data

Results flagged for a closer look

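From 23 members in groups of 4 or 7 wounds, 115 groups of values were examined. Of these, 12 held a wound standing apart from the rest by Dixon's criterion. The criterion assumes independent, normally distributed values. CPM of genes that vary together do not meet this, so the 12 are a description and are not set against chance. Col5a1CKO wound a of day 14 accounted for 5 of them, each as the highest of 7: Irf1 at 241 CPM, Cxcl10 at 98.4, Cxcl11 at 6.35, Gbp2 at 280 and Gbp5 at 55.4. The same wound had the highest Ifng count of the first table, 41, whose part in these values was not tested. Among WT wounds of day 14, Rsad2 stood apart at 88.3 CPM in wound c, Oas2 at 14.1 in wound a, Psmb8 at 72.9 in wound e and Cxcl11 at 0.274 in wound e. In the cilengitide table Eif2ak2 was high at 76.9 CPM in vehicle-treated Col5a1CKO wound 4, Mx1 at 2.54 in vehicle-treated WT wound 2, and Ifitm3 was low at 246 in vehicle-treated Col5a1CKO wound 2, the wound with neither Xist nor Ddx3y RNA.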

How the results depend on the processing

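Counts of called members were within 1.5 times the reported count in 195 of 234 counts under an alternative. Day 19 and the change between days were left aside, since a count of 0 in every alternative says nothing about stability. The 234 still include directions in which the reported count was 0, such as lower at day 14, where an unchanged 0 says nothing either. The 195 are therefore not a measure of stability. Percentages below are the shares of all genes called in the same direction. At day 14 the 5 members called higher became 10 with DESeq2 (8.67%), 10 with library size alone as scaling (7.09%), 9 with all groups in 1 fit (9.47%) and 10 with the library set as covariate (9.04%). They became 8 and 1 within the second and first set (8.81 and 3.68%), 2 at 3-fold (3.17%), and 2 to 7 when a wound was left out (3.39 to 6.37%). For fibroblast-treated against WT wounds the 7 became 11 with DESeq2 (5.6%), 4 at 3-fold (2.62%) and 11 with the replicate block (9.98%). They became 15 with the library set as covariate (1535 of 15316 genes) and 23 within the second set (19.8%). Without a wound they became 3 to 9 (1.33 to 4.24%). Within the second set WT wounds e, f and g carried Ddx3y RNA and all treated wounds Xist RNA. Group and sex RNA thus cannot be told apart in that fit. In the vehicle comparison the 32 became 8 among wounds with Y-linked RNA (7.03%) and 27 to 33 without a wound (14.0 to 18.6%). With cilengitide the 16 lower became 9 at 3-fold (3.32%), 0 among wounds with Y-linked RNA (0.0126%) and 4 to 18 without a wound (2.12 to 8.99%). Against WT the 4 became 14 with DESeq2 (9.33%), 0 in 1 fit (1.95%), 2 at 3-fold (2.46%), 0 among wounds with Y-linked RNA (0.0191%) and 0 to 14 without a wound (0.00635 to 7.56%). The causes were not tested beyond the smaller number of wounds or stricter threshold that these alternatives impose.

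For fibroblast-treated against Col5a1CKO wounds without fibroblasts the replicate block called 3 members lower (Ifit1, Ifit2 and Gbp3), where the comparison itself called 0. Beside them 7.42% of 15162 genes were called lower and 9.33% higher in that fit. It held only wounds a, b and c of each group. Those without fibroblasts were all of the first library set and the treated ones all of the second. Treatment and library set thus cannot be told apart in it. Under other alternatives 2 log2 fold changes reversed in this comparison: Ifit2 to 0.20 with the library set as covariate and 0.27 within the second set, and Eif2ak2 to 0.11 and 0.17. Same-letter wounds did not deviate together in every pair there (mean correlation 0.0971), at day 14 (0.185, lowest −0.459) or at day 19 (−0.389). These correlations do not settle whether the letters pair wounds, and the block left the day 14 count at 5. No paired analysis was possible for the cilengitide table because its numbers tie no wound of one group to a wound of another. Library size alone as scaling, like the restriction to Y-linked RNA, was chosen after the data were seen, and moved the median log2 fold change of all genes to 0.13 at day 14, 0.16 for fibroblast-treated against WT, −0.39 at day 19 and −0.53 for the change between days. Of the single-gene values, 634 kept direction and call, 105 lost the call, 1 gained it and 4 reversed. A call could be lost through the 3-fold limit alone, with p unchanged. With 3 or 4 wounds a group, differences larger than the SEs given could also go uncalled.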
